A study of Mus musculus with 2 samples.

Results

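The genes described here are 10 genes of matricellular and provisional matrix proteins, Fn1, Postn, Tnc, Tnn, Sparc, Cthrc1, Ccn1, Ccn2, Ccn4 and Ccn5, chosen by symbol from the 33696 features of the deposited tables. All 10 were found. They were measured in 2 libraries of unique molecular identifiers (UMIs, 1 per captured messenger RNA) from droplet-based sequencing of total wound cells. The aged library came from 24-month-old and the young library from 2-month-old wild type male C57BL/6 mice, each taken at day 6 after full-thickness wounds of 10 mm on the back. Several mice were pooled in each library, and their number is not given in the sources used here. With 1 library per age there is no replicate and no test. A difference by age cannot be told apart from one between the pools of mice or between the preparations of the libraries, and every interval below is a 95% interval that covers counting error only. Enzymatic digestion of the tissue, which was shared by both groups, preceded capture.

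The deposited tables held 4379 barcodes and 107865898 UMIs in the aged library, and 4932 barcodes and 111810068 UMIs in the young library. After filtering, 4210 aged and 4661 young cells remained, with medians of 13776.5 and 15566 UMIs. The libraries shared 3 barcodes. Cell classes were gated on marker genes that are not among the 10. This gave 1424 aged and 1520 young fibroblasts (medians of 49859 and 42205.5 UMIs), 1337 and 971 macrophage/monocyte cells, 702 and 1030 neutrophils, 35 and 314 T/NK cells, 45 and 47 blood endothelial cells, and 0 and 24 pericyte/smooth muscle cells. The summed level of the 8 fibroblast markers in the fibroblast gate was 60437 CPM (UMIs scaled to a total of 1000000 per sum of cells) in aged and 69996 CPM in young cells, with no marker at 0. In the same gate the 7 neutrophil markers summed to 58.3 CPM in aged and 158 CPM in young cells, and the 9 macrophage markers to 101 and 132 CPM. The part of these other-cell markers in the results was not tested.

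Matricellular proteins are secreted into the extracellular matrix, where they act on cells and growth factors more than as structural scaffold. Healing skin makes many of them while granulation tissue forms and makes little of most of them afterwards. Fibronectin, the product of Fn1, is the main cell-adhesive glycoprotein of the provisional matrix and is bound by integrins such as alpha5 beta1. Postn encodes periostin, which binds fibronectin, tenascin-C and collagen and is a partner of BMP1 in collagen crosslinking. Tnc and Tnn encode tenascin-C and tenascin-N (also called tenascin-W), oligomeric proteins that modulate adhesion to fibronectin. Sparc encodes osteonectin, a collagen-binding protein that takes part in collagen fibril assembly. Cthrc1 encodes a secreted protein with a short collagen triple helix repeat that is made by activated fibroblasts. The CCN genes encode modular secreted proteins. Ccn1 (Cyr61) and Ccn2 (Ctgf) are well-known targets of the YAP-TEAD pathway, Ccn4 (Wisp1) is known as a Wnt-responsive gene, and Ccn5 (Wisp2) encodes a member that lacks the carboxy-terminal domain of the others.

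The genes lie at separate places in the mouse genome apart from shared chromosomes. On GRCm38 (GENCODE M21, matched by gene identifier), Fn1 spans chr1:71585520-71653200 on the minus strand and Tnn spans chr1:160085029-160153580 on the minus strand. Ccn5 spans chr2:163820861-163833146 on the plus strand. Postn spans chr3:54361109-54391037 on the plus strand and Ccn1 spans chr3:145646976-145649981 on the minus strand. Tnc spans chr4:63959785-64047015 on the minus strand, Ccn2 spans chr10:24595442-24598683 on the plus strand and Sparc spans chr11:55394500-55423183 on the minus strand. Cthrc1 spans chr15:39076932-39087121 and Ccn4 spans chr15:66891320-66923201, both on the plus strand. Ccn1 and Ccn2 are the shortest at 3006 and 3242 bp, and Tnc is the longest at 87231 bp. Counts here are of 3' ends, so that a level does not scale with the length of a gene.

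The sequences before the start of Postn, Tnc and Ccn1 are shown because of their position. Their RefSeq starts lay 2, 0 and 4 bases from the annotated gene start, and the windows overlapped no annotated exon. The values below played no part in this choice. In them, Postn and Tnc were highest in Acta2 Crabp1 fibroblasts. Ccn1 was lower in the aged library in every fibroblast subset with at least 50 cells in both libraries. Each sequence is the 250 bases upstream of a RefSeq start (GRCm38.p6), written 5' to 3' on the strand of the gene. The windows are chr3:54360857-54361106 (Postn), chr4:64047016-64047265 (Tnc) and chr3:145649986-145650235 (Ccn1). Capitals mark matches to 6 motifs, each searched on both strands. For the TATA box the letters searched were TATAAA, and for AP-1 they were TGANTCA. The motif of the TEAD factors was searched as GGAATG. The box bound by NF-Y was searched as CCAAT. For the palindrome of the SMAD factors it was GTCTAGAC, and the CArG box of SRF was searched too.
Postn: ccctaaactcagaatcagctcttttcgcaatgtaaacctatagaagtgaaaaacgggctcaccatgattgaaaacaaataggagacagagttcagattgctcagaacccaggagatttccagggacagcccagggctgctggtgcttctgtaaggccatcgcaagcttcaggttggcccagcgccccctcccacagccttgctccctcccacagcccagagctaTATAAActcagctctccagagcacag
Tnc: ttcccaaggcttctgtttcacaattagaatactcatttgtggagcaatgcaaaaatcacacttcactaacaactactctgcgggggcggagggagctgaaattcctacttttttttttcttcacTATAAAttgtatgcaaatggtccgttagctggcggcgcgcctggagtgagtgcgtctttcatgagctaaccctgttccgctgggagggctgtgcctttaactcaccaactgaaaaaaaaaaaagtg
Ccn1: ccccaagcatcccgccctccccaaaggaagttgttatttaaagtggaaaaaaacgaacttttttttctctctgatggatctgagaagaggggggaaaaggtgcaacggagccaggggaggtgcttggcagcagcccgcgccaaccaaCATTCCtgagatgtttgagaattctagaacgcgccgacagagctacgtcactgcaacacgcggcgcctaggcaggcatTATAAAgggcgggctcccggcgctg
TATAAA was found in all 3 windows, from 26 to 21 bases before the start in Postn, from 126 to 121 in Tnc and from 25 to 20 in Ccn1. It was found in 12.4% of 32851 mouse windows of the same length. Of the members' windows not shown, those of a second Postn start and of Sparc held no match to any of the 6 motifs. That of Tnn held no TATAAA, and that of a second Tnc start held it from 205 to 200 bases before that start. Among the 3 windows shown the letters of the TEAD motif were found in that of Ccn1, on the strand opposite to the gene (read there as CATTCC) from 103 to 98 bases before the start, and in 12.6% of all windows. The window of Tnn, which is not shown because it overlaps the annotated gene, also held them, from 160 to 155 bases before its start, and CCAAT from 59 to 55. The AP-1, CCAAT box, SMAD and CArG box letters were in none of the 3 windows, against 6.75%, 33.8%, 0.167% and 1.47% of all windows. The motifs overlapped no other motif in these windows, and a match describes letters only.

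Nearly all members were fibroblast genes in both libraries. Among classes with at least 20 cells, 9 of 10 had their highest level in fibroblasts, in the aged library and in the young library alike. The exception was Ccn2, which was highest in blood endothelial cells. Fibroblasts held 96% or more of the UMIs of Postn, Tnc, Tnn, Sparc, Cthrc1, Ccn4 and Ccn5 in each library, the lowest share being that of Tnc, with 96.9% in aged and 96.4% in young cells. For Ccn1 the share was 89.5% in aged and 89.3% in young cells, and for Fn1 it was 78.6% and 80.0%. For Ccn2 it was 91.0% in aged and 77.1% in young cells, and cells that passed no gate held 1.76% and 9.10% of its UMIs.

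The highest level among the 10 was that of Sparc, at 15251 CPM in aged fibroblasts and 17374 CPM in young fibroblasts. Tnc (2766 and 2569 CPM), Fn1 (1823 and 1374 CPM), Postn (1703 and 2252 CPM) and Cthrc1 (1227 and 926 CPM) followed in aged and young fibroblasts. Ccn1, Tnn, Ccn4 and Ccn5 lay between 82.3 and 232 CPM in aged and between 99.1 and 393 CPM in young fibroblasts. Ccn2 was the lowest, at 33.9 CPM in aged and 40.2 CPM in young fibroblasts. Ccn4 stood above Ccn5 in the aged library and below it in the young library, and Fn1 stood above Postn in the aged library and below it in the young library.

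**Figure D1:**
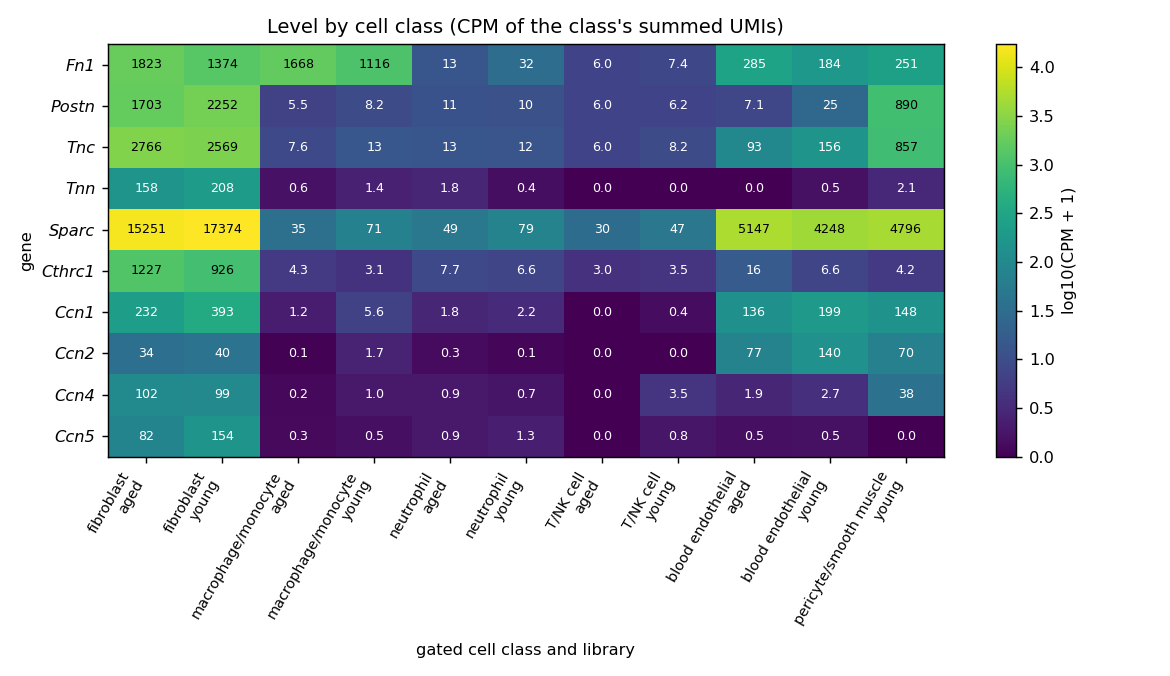
Level of each of the 10 genes (vertical axis) in 6 gated cell classes of the aged and young libraries (horizontal axis), as CPM printed in the cells and as log10(CPM + 1) in colour. The aged library had 0 gated pericyte/smooth muscle cells. Fibroblasts are highest for every gene except Ccn2, and Fn1 alone is also high in macrophage/monocyte cells.

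In leukocytes, Fn1 in macrophages apart, the members sat at a low level. Sparc was at 49.4 CPM in aged and 79.1 CPM in young neutrophils, and at 35.2 CPM in aged and 71.0 CPM in young macrophage/monocyte cells. After thinning every cell to 2000 UMIs, a Sparc UMI was seen in 9.45% of aged and 13.1% of young neutrophils, against 99.9% of aged and 99.9% of young fibroblasts. Without thinning the neutrophil shares were 19.5% and 31.0%. Sparc, the most abundant of the 10 transcripts, was thus at a like low level in both leukocyte classes. Whether levels of this kind are background or expression was not tested. In thinned neutrophils, Postn was seen in 2.05% of aged and 2.61% of young cells, Tnc in 2.36% and 2.19%, and Fn1 in 1.10% and 2.61%. The median depths before thinning were 4132 UMIs in aged and 5371 UMIs in young neutrophils, and thinning left out 67 and 73 of them.

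Within fibroblasts, no member was at least 1.5-fold higher in the aged library and 2 of 10, Ccn1 and Ccn5, were at least 1.5-fold lower; none passed 2-fold in either direction. Of 15758 genes measured in the same cells, 9.11% were at least 1.5-fold higher and 6.62% at least 1.5-fold lower in the aged library, and 3.22% and 2.63% passed 2-fold. The median log2 ratio of aged over young was -0.22 over the 10 members and 0.08 over all genes. TMM scaling lowered the log2 ratios of all genes in fibroblasts by a further 0.09.

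The matrix-assembly members went in different directions. Fn1 was at 1823 CPM in aged and 1374 CPM in young fibroblasts, a ratio of 1.33 (interval 1.32 to 1.34). Cthrc1 was at 1227 and 926 CPM, a ratio of 1.32 (1.31 to 1.34). Tnc differed little, at 2766 CPM in aged and 2569 CPM in young fibroblasts, a ratio of 1.08 (1.07 to 1.08).

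Sparc and the 2 further members of this group were lower in aged fibroblasts. The ratio was 0.878 (0.876 to 0.880) for Sparc. For Postn, at 1703 CPM in aged and 2252 CPM in young fibroblasts, it was 0.756 (0.751 to 0.762). For Tnn, at 158 and 208 CPM, it was 0.764 (0.745 to 0.783). Fn1, Cthrc1, Postn, Tnn and Sparc thus differed by more than counting error and by less than 1.5-fold.

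Among the CCN genes, the lowest ratios were those of Ccn5 and Ccn1. Ccn5 was at 82.3 CPM in aged and 154 CPM in young fibroblasts, from 6157 and 10546 UMIs, a ratio of 0.536 (0.519 to 0.553). Ccn1 was at 232 CPM in aged and 393 CPM in young fibroblasts, from 17329 and 27031 UMIs, a ratio of 0.589 (0.577 to 0.600). Under the 8 alternatives of the processing the fibroblast ratios of Ccn1 stayed between 0.554 and 0.599 and those of Ccn5 between 0.504 and 0.615.

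Ccn2 had a ratio of 0.843 (0.798 to 0.890) in fibroblasts. Its UMIs were concentrated in few cells: the 10 cells with most Ccn2 UMIs held 28.4% of them in aged and 33.7% in young fibroblasts, against 5.75% and 4.74% for Ccn1. Without those cells and under the other alternatives its ratio ran from 0.769 to just under 1. Ccn4 did not differ between the libraries within counting error, at 102 CPM in aged and 99.1 CPM in young fibroblasts (ratio 1.03, 0.996 to 1.06), and its ratio was below 1 with TMM scaling (0.968), means of per-cell levels (0.979) and thinned cells (0.956).

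**Figure D2:**
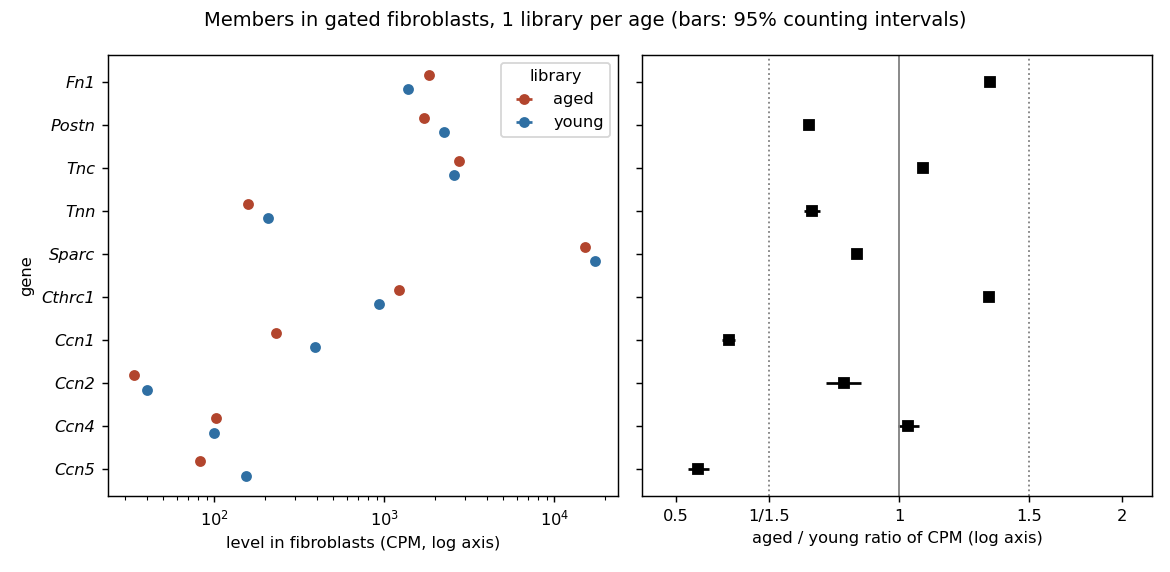
Left, level of each gene in gated fibroblasts (CPM, log axis) of the aged and young libraries; right, the ratio of aged over young (log axis, dotted lines at 1.5-fold in either direction). Bars are 95% counting intervals, many narrower than the points. Ccn1 (0.589) and Ccn5 (0.536) lie beyond the lower dotted line and none of the 10 beyond the upper one.

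The share of fibroblasts with a UMI told the same for Ccn1 and Ccn5. At 2000 UMIs per cell (1396 aged and 1491 young cells, 28 and 29 left out), Ccn1 was seen in 29.7% of aged and 41.5% of young fibroblasts, against 76.2% and 85.6% without thinning. Ccn5 was seen in 13.4% of aged and 22.1% of young fibroblasts, against 59.1% and 70.0% without thinning. In macrophage/monocyte cells, taken as a class that should lack both, the thinned shares of Ccn1 were 0.312% in aged and 0.527% in young cells. Those of Ccn5 were 0.0779% and 0%. Read as at most 3 counts, 0 of 948 young cells is up to 0.316%. For Fn1 the fibroblast shares were 83.1% in aged and 76.8% in young cells, against 95.4% and 96.2% without thinning. For Tnn they were 13.4% in aged and 14.2% in young cells, against 39.0% and 37.2% without thinning.

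How a member was spread over fibroblasts differed more between members than between libraries. In fibroblasts thinned to 10000 UMIs (1344 aged and 1446 young cells), Sparc had a median of 142 UMIs per cell in aged and 163.5 in young cells, and it was seen in every cell. Tnc had a median of 13 UMIs in aged and 11 UMIs in young cells. Its 90th percentile was 67 and 65 UMIs, and its 10th percentile was 0 in both, so that some fibroblasts held many Tnc UMIs and others none. Tnn was seen in 27.8% of aged and 27.6% of young fibroblasts, and in fibroblasts its 10 highest cells held 15.3% and 19.0% of its UMIs. Postn was also uneven, with a median of 10 and a highest value of 194 UMIs in aged cells, and a median of 12 and a highest value of 243 UMIs in young cells.

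Across single fibroblasts some members went together more than others. The Spearman correlation over thinned cells was 0.559 in aged and 0.543 in young cells for Sparc with Cthrc1, and 0.525 and 0.491 for Postn with Cthrc1. Tnc with Tnn gave 0.386 in aged and 0.321 in young cells, and Postn with Sparc gave 0.352 in both. Fn1 with Tnn gave -0.21 in aged and -0.04 in young cells. These are descriptions over cells that share a library, and most of the other pairs among the CCN genes were near 0, which in counts this sparse is no finding.

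Fibroblast subsets were gated on 4 or 5 markers each, and a cell could be in more than 1. There were 107 aged and 91 young Acta2 Crabp1 cells (contractile myofibroblast markers), 133 and 67 cycling cells, 162 and 178 Cxcl14 C7 Cilp cells, 363 and 262 Pi16 Dpp4 cells (markers of adventitial-type fibroblasts), 356 and 102 interferon-high cells, and 4 and 50 Coch Wif1 Igfbp2 cells. No subset was passed by 589 aged and 884 young fibroblasts, and 278 and 106 were in 2 or more. Many cells lay near a cut: 320 aged and 297 young fibroblasts were within 1.5-fold of that for Pi16 Dpp4 cells, and 86 and 70 of that for Acta2 Crabp1 cells. The subsets are ranges of a marker sum and not separate types.

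The Acta2 Crabp1 cells had the highest levels of Postn, Tnc, Tnn and Ccn4 in both libraries. Tnn was at 449 CPM in aged and 661 CPM in young Acta2 Crabp1 cells, 2.29-fold and 3.13-fold the level of fibroblasts in no subset (196 and 211 CPM). Ccn4 was at 212 and 196 CPM there, 1.95-fold in the aged and 1.94-fold in the young library. These were the 2 members at least 1.5-fold higher in this subset in both libraries, where 8.06% of 12190 genes were. Postn was at 2580 CPM in aged and 3388 CPM in young Acta2 Crabp1 cells, and Tnc at 4503 and 3543 CPM, between 1.22-fold and 1.46-fold the level of cells in no subset.

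Ccn5 was the reverse of these genes. It was at 44.4 CPM in aged and 28.5 CPM in young Acta2 Crabp1 cells, 0.593 and 0.179 of the level in no subset, and it was the single member at least 1.5-fold lower there in both libraries (5.42% of genes were). Fn1 was also lower in Acta2 Crabp1 cells, at 1151 CPM in aged and 960 CPM in young cells, or 0.702 and 0.761 of the level in no subset.

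Pi16 Dpp4 cells had the highest Fn1 among the subsets in both libraries and the lowest tenascin-C. Fn1 was at 2588 CPM in aged and 2084 CPM in young Pi16 Dpp4 cells, 1.58-fold and 1.65-fold the level in no subset (5.50% of 12508 genes were at least 1.5-fold higher there in both libraries). Tnc was at 846 CPM in aged and 1224 CPM in young Pi16 Dpp4 cells, or 0.239 and 0.423 of the level in no subset. Ccn4 (0.317 and 0.461) and Tnn (0.0994 and 0.390) were likewise lower there in aged and young cells, so that 3 of 10 members were at least 1.5-fold lower in both libraries, against 5.65% of genes.

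In Cxcl14 C7 Cilp cells, Ccn2 and Ccn5 had their highest levels in both libraries. Ccn2 was at 73.7 CPM in aged and 93.0 CPM in young cells of this subset, 2.76-fold and 2.43-fold the level in no subset. Ccn5 was at 152 and 268 CPM, 2.03-fold in the aged and 1.68-fold in the young library. Both were at least 1.5-fold higher in both libraries, where 5.76% of 12204 genes were. Tnn was the single member at least 1.5-fold lower there in both libraries (4.94% of genes were), at 0.0541 of the level in no subset in aged and 0.0947 in young cells, from 74 and 149 UMIs. The 10 highest cells held 91.9% and 89.9% of those UMIs.

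Interferon-high cells were low in both tenascins, and no member was at least 1.5-fold higher there in both libraries (4.26% of genes were). Tnn was at 22.7 CPM in aged and 24.5 CPM in young interferon-high cells, 0.116 of the level in no subset in each library, and Tnc was at 1393 and 1700 CPM, or 0.394 and 0.587 (5.73% of 12315 genes were at least 1.5-fold lower in both libraries). Cycling cells had 1.39-fold the Tnn level of no subset in the aged and 1.72-fold in the young library, and 0.855 and 0.508 of its Postn level. No member passed 1.5-fold in cycling cells in both libraries, against 11.5% of 12353 genes higher and 4.41% lower. The young Coch Wif1 Igfbp2 cells, 50 in number, had 479 CPM of Fn1 and 266 CPM of Cthrc1, the lowest of any young subset for both, and 444 CPM of Tnn. The aged library had 4 such cells, too few to compare.

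**Figure D3:**
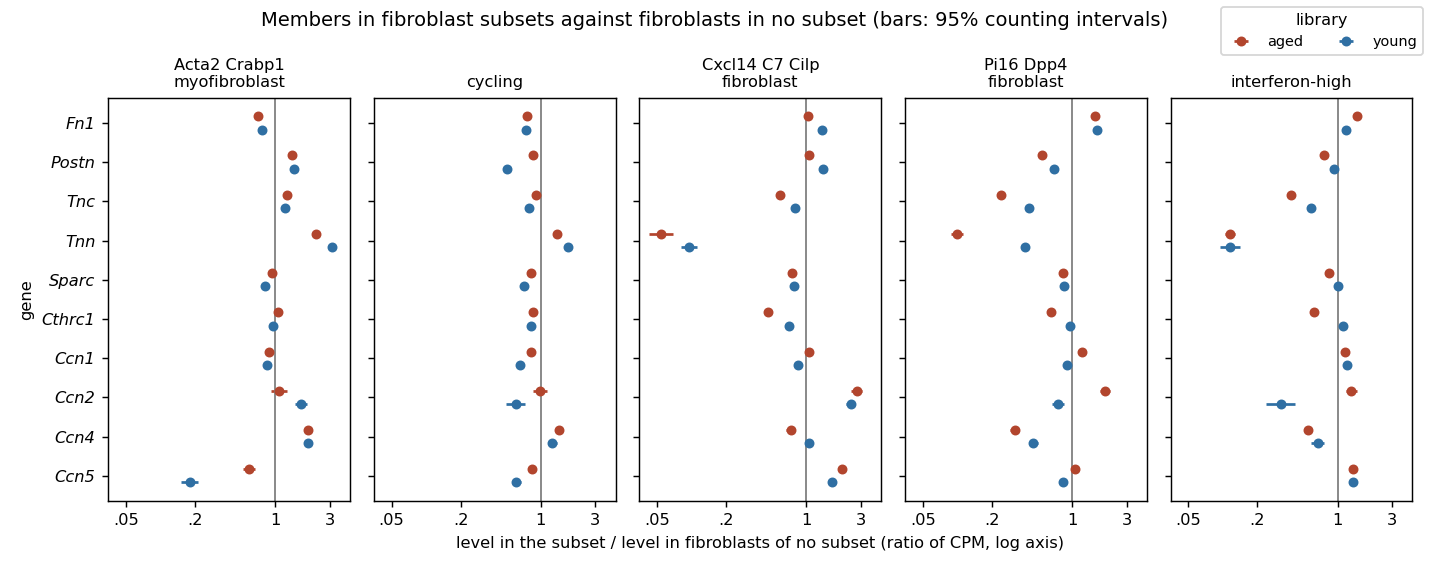
Level of each gene in 5 fibroblast subsets divided by its level in fibroblasts of no subset (ratio of CPM, log axis), for the aged and young libraries. Bars are 95% counting intervals. Tnn and Ccn4 lie to the right in Acta2 Crabp1 cells, Ccn2 and Ccn5 in Cxcl14 C7 Cilp cells and Fn1 in Pi16 Dpp4 cells, while Tnc, Tnn and Ccn4 lie to the left in Pi16 Dpp4 cells.

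Clusters of all cells, made without the 10 genes and added after seeing the data, gave a like order for the tenascins. The cluster led by Prss35 and Acta2 (221 aged and 196 young gated fibroblasts) had the highest Tnc (4296 CPM in aged and 3981 CPM in young cells) and Postn (2737 and 3688 CPM) of the 6 fibroblast clusters. Its Tnn was 365 CPM in aged and 453 CPM in young cells, also the highest. The cluster led by Akr1c18 had the lowest Tnc, at 768 CPM in aged and 869 CPM in young cells. Its leading genes include both Ifit1, a marker of the interferon-high gate, and Pi16, so it is not particular to Pi16 Dpp4 cells. A cluster led by Prl2c3 (263 aged and 283 young cells) combined high Tnc (3837 and 3280 CPM) with low Postn (855 and 1033 CPM).

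Comparing the ages within subsets, Ccn1 was lower in the aged library in each of the 5 subsets with at least 50 cells in both libraries and in cells of no subset. Its ratio ran from 0.531 in interferon-high cells to 0.758 in Pi16 Dpp4 cells and was 0.575 in Acta2 Crabp1 cells. In the 5 larger fibroblast clusters it ran from 0.419 (Prl2c3-led, 171 CPM in aged and 407 CPM in young cells) to 0.800 (cycling). A list of 15 genes linked to tissue dissociation was added after seeing the data. In fibroblasts they had a median log2 ratio of -0.51. At least 1.5-fold lower in the aged library were 7 of them, against 6.62% of all 15758 genes. The 7 include Atf3 (ratio 0.460), Hspa1a (0.284) and Fos (0.527), while Ier3 was at 1.15 and Junb at 1.08. The summed level of this list was 7081 CPM in aged and 8697 CPM in young fibroblasts. In interferon-high cells, where Ccn1 had its lowest ratio, it was 7004 CPM in aged and 7012 CPM in young cells. In Acta2 Crabp1 cells it was 6442 and 8077 CPM, and in cells of no subset 7038 and 8712 CPM. The part of these genes in the Ccn1 values was not tested.

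Postn was lower in aged Cxcl14 C7 Cilp cells, at 1934 CPM in aged and 3225 CPM in young cells, a ratio of 0.600. It was also lower in aged Pi16 Dpp4 (0.626), interferon-high (0.664) and Acta2 Crabp1 cells (0.762). Under the alternatives these ratios ran from 0.466 to 0.640, 0.578 to 0.667, 0.644 to 0.893 and 0.762 to 0.916, in that order. In cycling cells Postn was higher, at 1579 CPM in aged and 1177 CPM in young cells, a ratio of 1.34 (1.30 to 1.38). The alternatives gave 1.20 to 1.58 there. The ratio of Tnn was below 1 in all 5 subsets, within counting error in interferon-high cells (0.925, 0.742 to 1.16). It turned to 2.69 in interferon-high cells without the 10 cells with most Tnn UMIs, and to 1.02 in Cxcl14 C7 Cilp cells with Leiden clusters for classes. In cells of no subset (0.929) it turned to 1.12 with means of per-cell levels. It was 0.679 in Acta2 Crabp1 cells, the subset with most Tnn, and lowest in Pi16 Dpp4 cells, at 19.5 CPM in aged and 82.3 CPM in young cells (0.237, 0.208 to 0.270). That value rested on few cells: 10 cells held 86.9% of the 914 young Tnn UMIs in this subset, and the ratio ran from 0.159 to 0.712 under the alternatives.

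Tnc divided the subsets. It was higher in the aged library in Acta2 Crabp1 cells (ratio 1.27), cycling cells (1.41) and cells of no subset (1.22), and lower in Pi16 Dpp4 cells (0.691), interferon-high cells (0.819) and Cxcl14 C7 Cilp cells (0.898). The interferon-high ratio turned to 1.19 without the 10 cells with most Tnc UMIs. The summed level of the 7 pericyte markers was on the same side of the young value as Tnc in each of these groups. This sum is not particular to pericytes. Ndufa4l2, which is among the 7, was also a leading gene of the Prl2c3-led fibroblast cluster, which had high Tnc. The sum was 148 CPM in aged and 82.8 CPM in young Acta2 Crabp1 cells, 111 and 69.6 CPM in cycling cells, and 272 and 126 CPM in cells of no subset. It was 54.2 CPM in aged and 126 CPM in young Pi16 Dpp4 cells, 56.3 and 169 CPM in interferon-high cells, and 63.8 and 79.8 CPM in Cxcl14 C7 Cilp cells, with 1 or 2 of the 7 markers at 0 in each group, and its part in the Tnc values was not tested. Cthrc1 was higher in aged Acta2 Crabp1 cells, at 1539 CPM in aged and 944 CPM in young cells, a ratio of 1.63 (1.58 to 1.69), and in cycling cells (1.53). Its ratio was near 1 in Pi16 Dpp4 cells (1.01) and Cxcl14 C7 Cilp cells (0.969), and lower in interferon-high cells (0.828). Under the alternatives these ratios ran from 0.807 to 1.01, from 0.636 to 0.993 and from 0.675 to 0.946, in that order. Fn1 had its highest ratio in interferon-high cells, at 2437 CPM in aged and 1497 CPM in young cells (1.63, 1.59 to 1.67), and its lowest in Cxcl14 C7 Cilp cells (0.990). Sparc, which varied little over the subsets, was lower in aged interferon-high (0.749), Cxcl14 C7 Cilp (0.856) and Pi16 Dpp4 cells (0.861). It was nearly equal in Acta2 Crabp1 (1.01) and cycling cells (1.02). Ccn4 was higher in aged cycling cells (158 CPM in aged and 127 CPM in young cells, ratio 1.24) and lower in aged Pi16 Dpp4 cells (0.743), for which the ratio was 0.443 under the alternative farthest from it. Whether these ratios differ between subsets beyond the spread of animals was not tested, since there is 1 library per age.

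Interferon-high cells made up 356 of 1424 aged and 102 of 1520 young fibroblasts, and cells of no subset 41.4% and 58.2%. A level over all fibroblasts holds this difference in make-up. Within cells of no subset, the ratios were 0.551 for Ccn1, 0.470 for Ccn5, 0.798 for Postn, 0.929 for Tnn, 1.30 for Fn1 and 1.48 for Cthrc1.

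Ccn5 and Ccn2 had ratios past 1.5-fold on both sides of 1. Ccn5 was lower in the aged library in 4 of the 5 subsets, from 0.468 in interferon-high to 0.644 in cycling cells, where it turned to 1.30 without the 10 highest cells. In Acta2 Crabp1 cells it was at 44.4 CPM in aged and 28.5 CPM in young cells, a ratio of 1.55, from 321 and 144 UMIs, of which 10 cells held 65.1% and 90.3%. Under the alternatives that ratio ran from 1.53 to 5.37. In the cluster led by Prss35 and Acta2, which overlaps that subset, Ccn5 was at 54.9 CPM in aged and 91.9 CPM in young cells, a ratio of 0.597, so the direction in myofibroblast-type cells turned with how they were chosen. Ccn2 had a ratio of 2.88 (2.16 to 3.91) in interferon-high cells and 0.450 (0.376 to 0.537) in Acta2 Crabp1 cells. The interferon-high value rested on 592 aged and 51 young Ccn2 UMIs, and 10 cells held 96.1% of the young ones, so that under the alternatives it ran from 2.41 to 28.1. The Acta2 Crabp1 value ran from 0.265 to 0.711. In Pi16 Dpp4 cells Ccn2 was at 51.7 CPM in aged and 29.0 CPM in young cells, a ratio of 1.78.

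**Figure D4:**
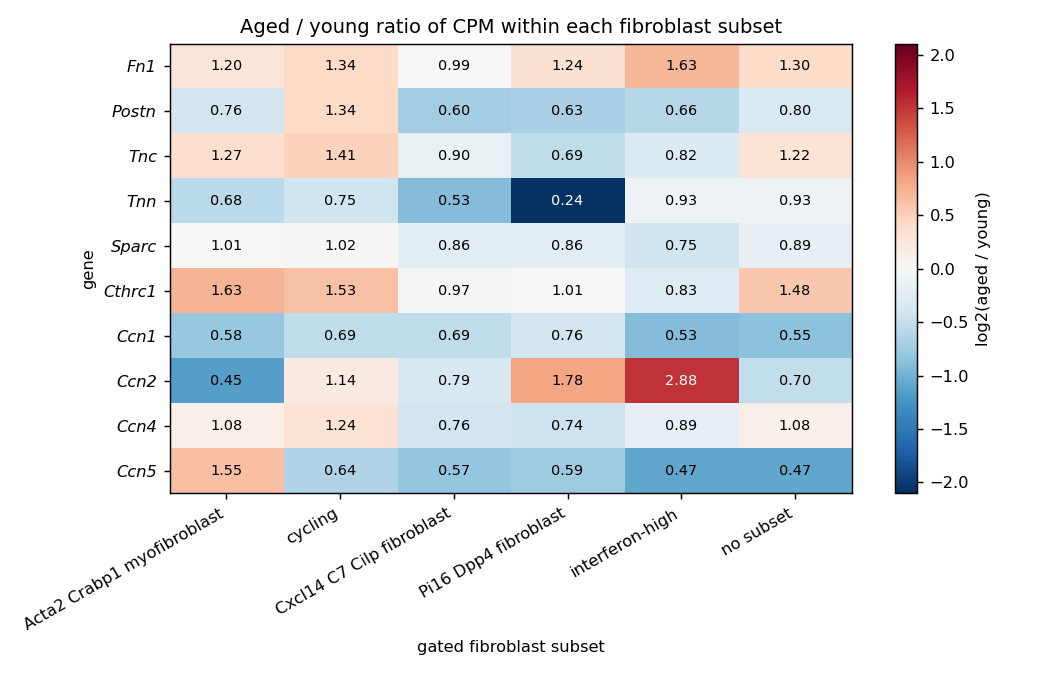
Ratio of aged over young CPM (printed, and as log2 in colour) of each gene in 5 fibroblast subsets and in fibroblasts of no subset. Ccn1 is below 1 in all columns (0.53 to 0.76), while Ccn2 runs from 0.45 to 2.88.

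Fn1 was the single member with high levels in leukocytes. In macrophage/monocyte cells it was at 1668 CPM in aged and 1116 CPM in young cells, from 31448 and 19368 UMIs, a ratio of 1.49 (1.47 to 1.52). At 2000 UMIs per cell it was seen in 57.3% of 1284 aged and 46.2% of 948 young cells, against 1.10% and 2.61% of neutrophils. Without thinning the shares were 69.8% in aged and 63.0% in young macrophage/monocyte cells, and 3.70% and 6.50% in neutrophils. Macrophages held 18.1% of all Fn1 UMIs in the aged and 16.4% in the young library. Of 11632 genes measured in these cells, 17.2% were at least 1.5-fold higher and 5.28% at least 1.5-fold lower in the aged library, with a median log2 ratio of 0.25. TMM scaling lowered the log2 ratios there by 0.20, and under the alternatives the Fn1 ratio ran from 1.30 to 1.85.

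The clusters of these cells had very different Fn1 levels in both libraries. The cluster led by Arg1, an arginine-metabolising enzyme, had the highest, at 4329 CPM in 294 aged and 2716 CPM in 142 young cells. The cluster led by Mmp12, a macrophage elastase, had 2363 CPM in 132 aged and 2059 CPM in 202 young cells. Next came the cluster with Ms4a7 and C1qa, at 1082 CPM in 356 aged and 339 CPM in 210 young cells. The cluster with MHC class II genes and Ly6c2 had 983 and 331 CPM, and that led by Cd163, a scavenger receptor of resident macrophages, had 331 and 142 CPM in aged and young cells. The cluster order was thus the same in the 2 libraries, except that the clusters with Ms4a7 and with Ly6c2 did not differ beyond counting error in the young library.

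Fn1 was higher in the aged library in each of these 5 clusters, with ratios from 1.15 (Mmp12-led) to 3.19 (Ms4a7 and C1qa). In the Cd163-led cluster, 10 cells held 59.0% of the aged and 79.7% of the young Fn1 UMIs. In the cluster with Ms4a7 and C1qa, 10 cells held 22.3% and 43.9%. The ratios of single clusters were not run under the alternatives. The Arg1-led cluster made up 22.0% of aged and 14.6% of young macrophage/monocyte cells and the Mmp12-led cluster 9.87% and 20.8%. Split at each library's own median of C1qa plus C1qb, Fn1 was at 2527 CPM in aged and 1661 CPM in young cells at or below the median. Above the median it was at 980 and 626 CPM.

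**Figure D5:**
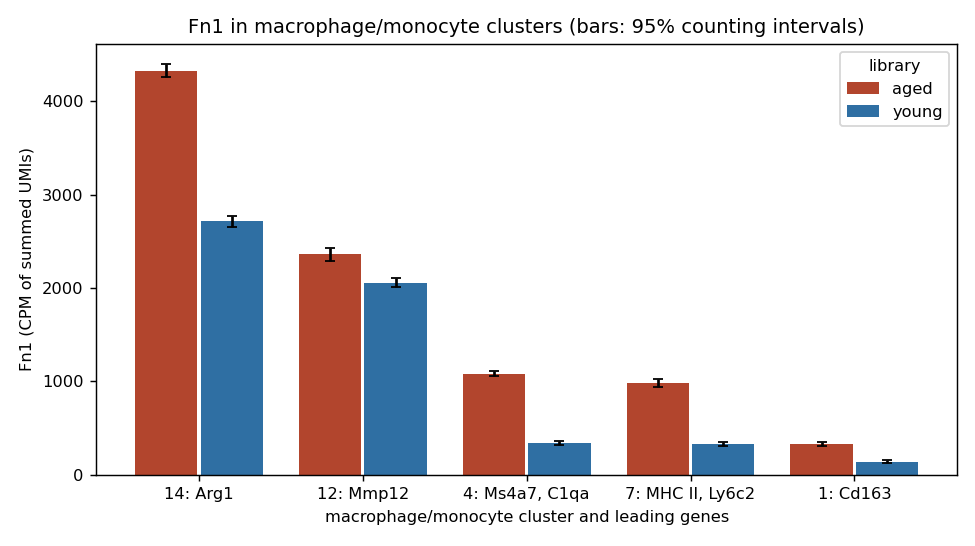
Fn1 level (CPM of summed UMIs) in 5 macrophage/monocyte clusters, named by leading genes, for the aged and young libraries. Bars on the columns are 95% counting intervals. The Arg1-led cluster is highest (4329 CPM in aged and 2716 CPM in young cells), and every aged column is above its young one.

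Blood endothelial cells carried Ccn2, Sparc and Ccn1. Ccn2 was at 77.1 CPM in aged and 140 CPM in young endothelial cells, from 163 and 255 UMIs. Sparc was at 5147 CPM in aged and 4248 CPM in young cells, and Ccn1 at 136 and 199 CPM. With 45 aged and 47 young cells, 10 cells held 95.7% of the aged and 88.6% of the young Ccn2 UMIs. The Ccn2 ratio was 0.550 (0.449 to 0.672), and it ran from 0.193 to 0.614 under the alternatives. The 7 pericyte markers summed to 57.2 CPM in aged and 357 CPM in young endothelial cells, and their part in the Ccn2 values was not tested. The 24 young pericyte/smooth muscle cells had 890 CPM of Postn, 857 CPM of Tnc, 4796 CPM of Sparc and 69.6 CPM of Ccn2, and 0 UMIs of Ccn5. In lymphatic endothelial cells, 5 aged and 18 young, Ccn1 was at 887 CPM in aged and 601 CPM in young cells, above its fibroblast level in both libraries.

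The genes most like each member over 18 class and subset sums were mostly fibroblast genes. By Pearson correlation of log2(CPM + 5), Postn was most like Snhg18, Cacna2d1 and Col6a2 (0.995 each), Tnc most like Gli3, Col12a1 and Fkbp10 (0.992 to 0.993), and Tnn most like Ttll7 (0.978), Cadm2 and Col24a1. Sparc was most like Col1a2, Col1a1 and Bmp1, and Cthrc1 most like Col5a3, Cdr2l and Pxdn. Fn1 was most like Ccl7 (0.980), Rai14 and Idh1. Ccn1 was most like Aebp1, Pdgfra and Lamb1, Ccn2 most like Irs1, Prkd1 and Msx1, Ccn4 most like Tln2, Col12a1 and Usp13, and Ccn5 most like Cxcl12, Nfib and Ssc5d. The sums share libraries and cells and fall into fibroblast and leukocyte sets, which alone gives high values.

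Within the 13 fibroblast subset sums, Tnc and Ccn4 had a correlation of 0.940, Tnn and Ccn4 of 0.737 and Tnc and Tnn of 0.723. Fn1 ran against the tenascins, with -0.75 for Tnn and -0.66 for Tnc. These 13 sums share cells where subsets overlap.

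Other genes of the same pathways were read in the same fibroblasts. Of 28 other matricellular genes with at least 50 UMIs, 2 were at least 1.5-fold higher and 7 at least 1.5-fold lower in the aged library, with a median log2 ratio of -0.14. Spp1 (osteopontin) was at 499 CPM in aged and 151 CPM in young fibroblasts, a ratio of 3.31, and Thbs4 (thrombospondin 4) had a ratio of 1.68. Comp, a thrombospondin-family cartilage matrix protein, was at 2.42 and 7.66 CPM in aged and young cells (0.316), and Smoc1 had a ratio of 0.419 from 37 aged and 81 young UMIs.

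Of 28 receptor genes (integrins, syndecans and others), 4 were at least 1.5-fold higher and 3 lower, with a median of -0.10. Sdc3, a syndecan, had a ratio of 1.78 and Itga4 of 1.69, while Itga8, an integrin subunit that pairs with beta1 to bind fibronectin and tenascin-C, had 0.428 and Ptprz1 0.475, each from at most 60 UMIs per library. Of 20 TGF-beta responsive genes, 2 were at least 1.5-fold higher and 0 lower, with a median of -0.08. Timp1, an inhibitor of matrix proteases, had a ratio of 1.79 and Acta2, smooth muscle actin, of 1.69, while Col1a2 had 0.833 and Bgn, the proteoglycan biglycan, 0.754.

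Of 25 YAP-TEAD and SRF responsive genes, 1 was at least 1.5-fold higher and 2 lower, with a median of -0.09. Foxf2 had a ratio of 2.33 from 89 aged and 35 young UMIs and Fhl2 of 1.49, while Fos had 0.527 and Actg2, a smooth muscle actin, 0.424. Ccn1 and Ccn2, at 0.589 and 0.843, were thus both below the median of that list. Of the 9 measured genes of the fibrin and clot list, 1 was higher and 0 lower, with a median of -0.12. Plau, the urokinase plasminogen activator, had a ratio of 1.84 and Plat, the tissue plasminogen activator, of 1.34, while Tgm2 and Tgm1, which are transglutaminases, had 0.778 and 0.682. The share of all genes at least 1.5-fold higher or lower in these fibroblasts, 9.11% and 6.62%, stands beside each of these counts.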

How the data were processed

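Each library was deposited as a table of raw counts (UMIs of a gene in a barcode, whole numbers, not normalized). Per the file headers, Cell Ranger 8.0.1 wrote them. Cell Ranger is given as 9.0 in the submitters' processing notes, which also list STAR, Seurat 4 and GRCm38/mm10. Of the 33696 features, 1735 had identifiers absent from GENCODE M21, and all 10 members were present.

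Cells with at least 500 UMIs and 200 genes and under 15% mitochondrial UMIs were kept. Scrublet called 2 aged and 3 young doublets (0.0475% and 0.0644%), so in effect it did not work and doublets have to be assumed to remain. Classes and fibroblast subsets were gated on summed markers per 10000 UMIs, with cuts set after seeing the marker distributions. A cell that passed a second class within 3-fold was called mixed and not used. Members were in no gate and in no clustering (scanpy 1.11.5, 2000 variable genes, 30 components, 15 neighbours, Leiden resolution 1). UMIs were summed per library and class and divided by the total of those cells (CPM). Levels have exact Poisson intervals, ratios exact conditional binomial intervals and shares of cells with a UMI exact Clopper-Pearson intervals, all at 95%. PCR duplicates are removed by UMIs, but cells of 1 library share its animals, so intervals cover counting error only. A count of 0 is read as at most 3 counts, which is a set floor and not the upper end of these intervals.

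Named were all 10 members, the 3 genes most like each over sums of at least 50 cells (genes with 500 or more UMIs), and the 2 highest and 2 lowest of each related list. Members and lists were chosen with earlier results of these data known. Promoters are from RefSeq (GRCm38.p6), which held entries for 5 members. The calculation of ratios and intervals was tested on simulated data. Alternatives were TMM scaling (edgeR 4.0.16 in R 4.3.3), per-cell means, thinning, stricter cells, Leiden classes and leaving out the 4% highest doublet scores. Further ones were leaving out the 10 highest cells, raised gates, 2-fold calls and 5 CPM added. The dissociation list and the fibroblast and macrophage clusters, with the split by C1qa plus C1qb, were added after seeing the data. There were 0 unused columns of other samples.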

Additional observations from a re-analysis of the deposited data

Results flagged for a closer look

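In fibroblast subsets, 2 of the 10 genes had ratios of aged over young at least 1.5-fold to opposite sides. Ccn2 was at 35.3 CPM in aged and 12.3 CPM in young interferon-high cells, a ratio of 2.88, and at 28.9 CPM in aged and 64.2 CPM in young Acta2 Crabp1 cells, a ratio of 0.450. With the 10 cells of most Ccn2 UMIs left out of each library, the interferon-high ratio was 28.1, since 96.1% of the young UMIs lay in those cells. Ccn5 was at 44.4 CPM in aged and 28.5 CPM in young Acta2 Crabp1 cells, a ratio of 1.55, and at 101 CPM in aged and 216 CPM in young interferon-high cells, a ratio of 0.468. The Acta2 Crabp1 ratio of Ccn5 rested on few UMIs, held mostly by few cells, and ran from 1.53 to 5.37 under the alternatives. In the overlapping cluster led by Prss35 and Acta2, Ccn5 was lower in the aged library, as given above. Neither difference between subsets was tested, since there is 1 library per age. Interferon-high cells numbered 356 aged and 102 young, and Acta2 Crabp1 cells 107 aged and 91 young.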

How the results depend on the processing

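The median log2 ratio of the 10 genes in fibroblasts, -0.22, stayed below 0 under all alternatives run. It was -0.31 with TMM scaling, -0.11 with means of per-cell levels, -0.13 with cells thinned to 2000 UMIs, -0.28 with Leiden clusters for classes and -0.16 without the 10 cells with most UMIs of each gene. The count of genes at least 1.5-fold lower in aged fibroblasts was 2, and 0 at 2-fold. The counts of genes highest in fibroblasts or pericytes (8 to 10, against 9) and in Acta2 Crabp1 cells (3 or 4, against 4) stayed within 1.5 times. Of 76 single ratios, 66 stayed on their side of 1 under every alternative that gave a value. The alternative without the 4% highest doublet scores cannot show what doublets contribute, because doublet calling in effect did not work. Among ratios past 1.5-fold, 3 turned: Tnn in Cxcl14 C7 Cilp cells was 1.02 with Leiden clusters, Ccn5 in cycling cells was 1.30 without the 10 highest cells, and Tnc in blood endothelial cells was 1.02 after thinning. Of the other 7, Ccn4 in interferon-high cells turned to 1.15 and Tnn and Tnc there to 2.69 and 1.19, all without the 10 highest cells. The rest had main ratios between 0.929 and 1.03. Under the alternatives Fn1 in Cxcl14 C7 Cilp cells ran from 0.823 to 1.03 and Cthrc1 in Pi16 Dpp4 cells from 0.807 to 1.01. Tnn in cells of no subset ran from 0.863 to 1.12 and Ccn4 in all fibroblasts from 0.956 to 1.03. The cause was not tested. Few UMIs limit Ccn2, and Tnn outside Acta2 Crabp1, cycling and no-subset cells. No paired analysis was possible because each age has 1 library.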
